A study of Caenorhabditis elegans with 6 samples.

Results

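The insulin pathway of *C. elegans* was followed through 9 genes, *daf-2*, *age-1*, *daf-18*, *pdk-1*, *akt-1*, *akt-2*, *sgk-1*, *daf-16* and *pqm-1*, out of 17118 genes that the array annotation names alone on at least 1 probe set. A probe set is a group of short probes that reads 1 transcript or several, and the 9 genes were chosen by name, with all 23 of their probe sets. Wild-type animals of strain N2, taken as whole organisms at the late L4 larval stage, were kept for 15 hours at 15°C in liquid S-basal medium, fed *E. coli* OP50 and exposed to 70 µM RPW-24, a small molecule that stimulates immune defenses. Control animals received the solvent alone, and both groups held 1% DMSO. Each group held 3 arrays, 1 for each of the replicates G, H and I, and the treatments of a letter ran in parallel. None of the animals carried a mutation or transgene. In whole animals, a shift in the share of a tissue and a shift in transcript per cell cannot be told apart.

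The pathway passes a signal from insulin-like peptides to the transcription factor DAF-16. The peptides act on the receptor DAF-2, the kinase AGE-1 then makes a membrane lipid signal that the phosphatase DAF-18 removes, and PDK-1, AKT-1, AKT-2 and SGK-1 are kinases that this signal sets to work. AKT kinases phosphorylate DAF-16 and hold it outside the nucleus, so that low DAF-2 activity lets it switch on genes for stress resistance and defense. PQM-1 is a zinc finger transcription factor of the intestine that takes the opposite location, being nuclear when DAF-16 is not. Much of this control works on phosphorylation and location, which transcript levels do not read.

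None of the 9 genes passed an adjusted p under 0.05 (limma, Benjamini-Hochberg over all 22548 probe sets tested), each gene being given by its brightest probe set, judged by the mean of all 6 arrays. Over all 17118 genes read this way, 3.71% passed, 2.63% higher and 1.08% lower in RPW-24. The same fit called none of the 23 probe sets. Before adjustment, 1 of the 9 genes, *pqm-1*, had a limma p under 0.05, against 15.3% of all genes, and it was also the single gene that a plain equal-variance test on linear intensities gave. The median log2 fold change of the 9 genes was 0.01. Over the 8 of them whose mean log2 intensity was at least 5 it was 0.04, against -0.07 for the 7365 genes at that level. The groups did not overlap for 2 of those 8 genes, *akt-1* and *pqm-1*, against 38.9% of genes at that level. For 1 gene at this group size, the smallest two-sided p that exact permutation can give is 0.1. The precision is limited by the number of arrays, and quantile normalized values do not show whether the amount of total RNA differed. The array medians of the deposited values still ran from 8.94 to 9.04 in DMSO and from 9.83 to 9.985 in RPW-24. That is a log2 shift of 0.14 among dim values, of the size of several log2 fold changes given below.

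**Figure D1:**
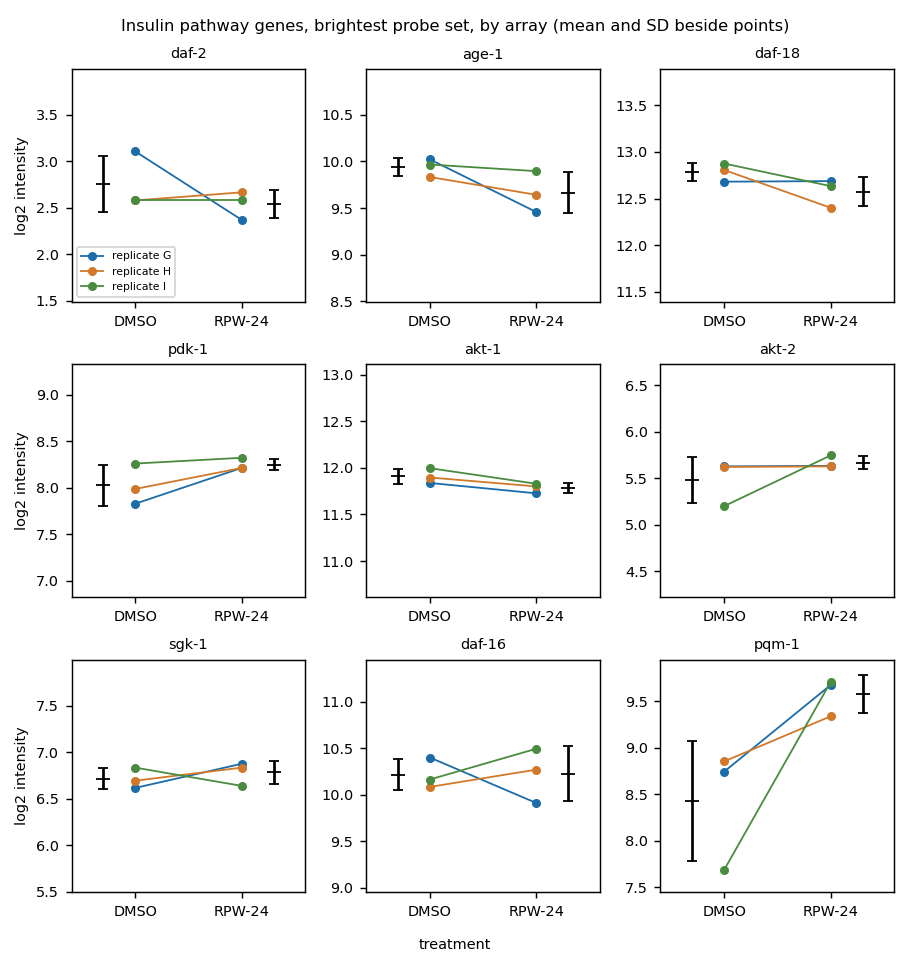
Log2 intensity of each insulin pathway gene on its brightest probe set, by treatment, with a line joining the arrays of a replicate letter and the mean and SD of each group beside the points. Every panel spans the same log2 range, and *pqm-1* shows the widest separation, with its DMSO array of replicate I at 207 and every other array at 429 or above.

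The receptor transcript was too dim to judge. *daf-2* encodes the insulin receptor, and its brightest probe set was at 8.61, 5.98 and 5.98 on the DMSO arrays of G, H and I and at 5.17, 6.35 and 5.98 on the RPW-24 arrays. The table's lowest intensity is 4.39, so all 6 values sat close to it and the groups overlapped. The log2 fold change was -0.22 (standard error 0.18, adjusted p = 0.731 from limma). A further pair of *daf-2* probe sets never left the lowest intensity, and the remaining one stayed at 5.53 or below.

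The lipid signalling enzymes were read brightly, and the values of both were somewhat lower in RPW-24 without passing the test. *age-1*, the kinase subunit that makes the lipid signal, was at 1041, 912 and 1001 in DMSO and at 703, 799 and 953 in RPW-24. The RPW-24 array of replicate I lay within the DMSO range, so the groups overlapped. The log2 fold change was -0.28 (standard error 0.13, adjusted p = 0.445 from limma), with a 95% interval of the fold from 0.653 to 1.04. Its other probe set gave -0.29, with 436, 437 and 497 in DMSO and 404, 302 and 423 in RPW-24, and there all RPW-24 arrays lay below the DMSO arrays.

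*daf-18*, the phosphatase that removes the lipid signal, was at 6567, 7161 and 7515 in DMSO and at 6595, 5408 and 6353 in RPW-24 on its brighter probe set. The groups overlapped through replicate G, whose arrays were nearly equal. The log2 fold change was -0.21 (standard error 0.10, adjusted p = 0.432 from limma). On the dimmer probe set the arrays of DMSO read 4323, 4549 and 4756 and those of RPW-24 read 3861, 3144 and 3216. There every RPW-24 array lay below every DMSO array, with log2 differences of -0.16, -0.53 and -0.56 in G, H and I. The fold was 0.747 (95% interval 0.628 to 0.889, unadjusted p = 0.00816, adjusted p = 0.12 from limma). When only probe sets with a mean log2 intensity of at least 5 were fitted, its adjusted p was 0.032 from limma. Blocking on the replicate letter in that filtered fit gave 0.0693. The filtered fit called no other of the 16 insulin pathway probe sets at that level, and by brightest probe set it called 17.1% of the 7365 genes, or 14.5% with the block.

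**Figure D2:**
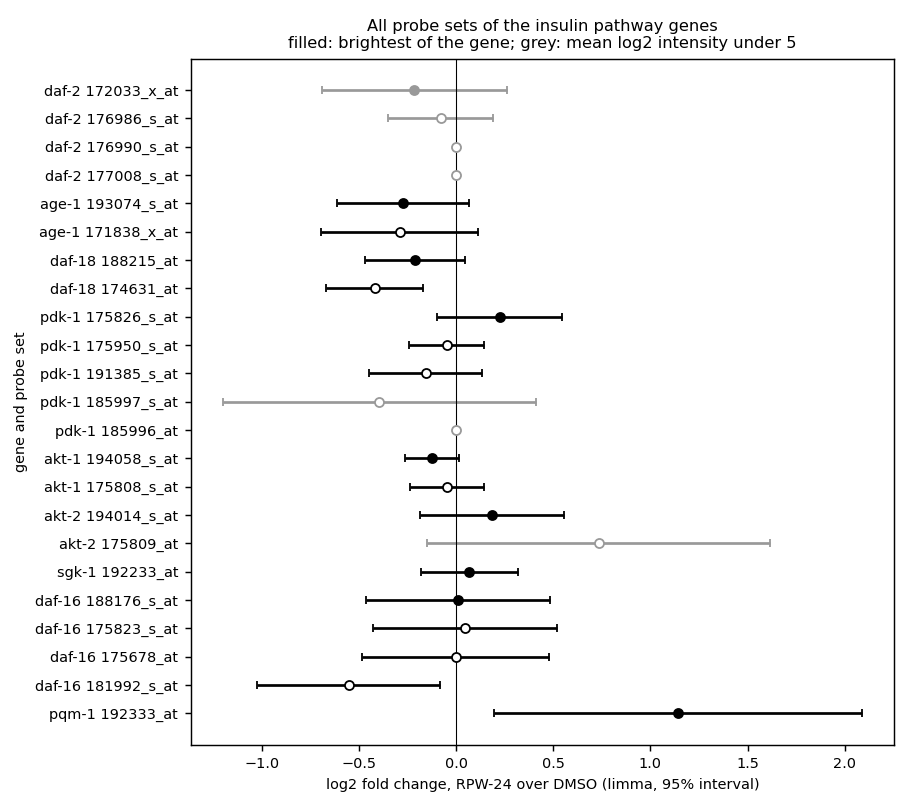
Log2 fold change of RPW-24 over DMSO with its 95% interval from limma for the 23 probe sets of the 9 genes, with the brightest of each gene filled and those under a mean log2 intensity of 5 in grey. The intervals of 1 *daf-18* probe set, 1 *daf-16* probe set and *pqm-1* do not cross 0 before adjustment, and none passes an adjusted p under 0.05.

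The kinases that the lipid signal recruits differed by less than 1.5-fold between the group means on their brightest probe sets. *pdk-1*, which phosphorylates the AKT kinases, was at 227, 254 and 307 in DMSO and at 297, 297 and 320 in RPW-24, and the groups overlapped through replicate I of DMSO. The log2 fold change was 0.22 (standard error 0.12, adjusted p = 0.538 from limma). Its direction was not shared by its other probe sets. The next *pdk-1* probe sets by brightness gave -0.05 and -0.16, and a dim one gave -0.40 with values from 15.9 to 39.7. The fifth never left the lowest intensity.

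*akt-1*, an AKT kinase that phosphorylates DAF-16, was at 3663, 3815 and 4089 in DMSO and at 3391, 3570 and 3642 in RPW-24. All RPW-24 arrays lay below all DMSO arrays, with log2 differences of -0.11, -0.10 and -0.17 in G, H and I. The log2 fold change was -0.12 (standard error 0.05, adjusted p = 0.393 from limma), with a 95% interval of the fold from 0.833 to 1.01. Its other probe set gave -0.05, and its groups overlapped.

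*akt-2*, the second AKT kinase, was dim on both its probe sets. The brighter read 49.4, 49.2 and 36.7 in DMSO and 49.6, 49.4 and 53.6 in RPW-24, so that replicate I alone showed a difference. The log2 fold change there was 0.19 (standard error 0.14, adjusted p = 0.731 from limma). The dimmer read 12.1, 22.3 and 22.3 in DMSO and 39.6, 29.6 and 23.8 in RPW-24, without overlap, with a log2 fold change of 0.73 (adjusted p = 0.433 from limma). With intensities under 32 set to 32, that value was 0.10.

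*sgk-1*, a kinase related to the AKT kinases that also acts with the TOR complex protein RICT-1, was at 98.0, 103 and 114 in DMSO and at 117, 114 and 99.5 in RPW-24. The groups covered nearly the same range. The log2 fold change was 0.07 (standard error 0.09, adjusted p = 0.948 from limma), with a 95% interval of the fold from 0.882 to 1.245. It was -0.07 with arrays centred on their medians.

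*daf-16*, the FOXO transcription factor at the end of the pathway, was read by 4 probe sets, and they did not give the same picture. The brightest was at 1352, 1086 and 1148 in DMSO and at 964, 1236 and 1443 in RPW-24. The RPW-24 arrays held both the lowest and the highest value, with a difference of -0.49 in G and of 0.19 and 0.33 in H and I. The log2 fold change was 0.01 (standard error 0.18, adjusted p = 1 from limma), with a 95% interval of the fold from 0.725 to 1.4, and it was -0.13 with arrays centred on their medians. A pair of dimmer probe sets gave 0.05 and -0.00, also with G lower and I higher in RPW-24. The dimmest was at 327, 298 and 351 in DMSO and at 282, 186 and 206 in RPW-24. All its RPW-24 arrays lay below all its DMSO arrays, with log2 differences of -0.21, -0.68 and -0.77. Its fold was 0.681 (95% interval 0.491 to 0.945, unadjusted p = 0.03, adjusted p = 0.253 from limma, and 0.0782 in the filtered fit). Across the 6 arrays the other 3 probe sets correlated with each other at Pearson r from 0.627 to 0.916, and with the dimmest at -0.589 to -0.296, as a description of these arrays. The sources used here do not say which *daf-16* transcripts each probe set reads, and the difference between them was not tested.

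**Figure D3:**
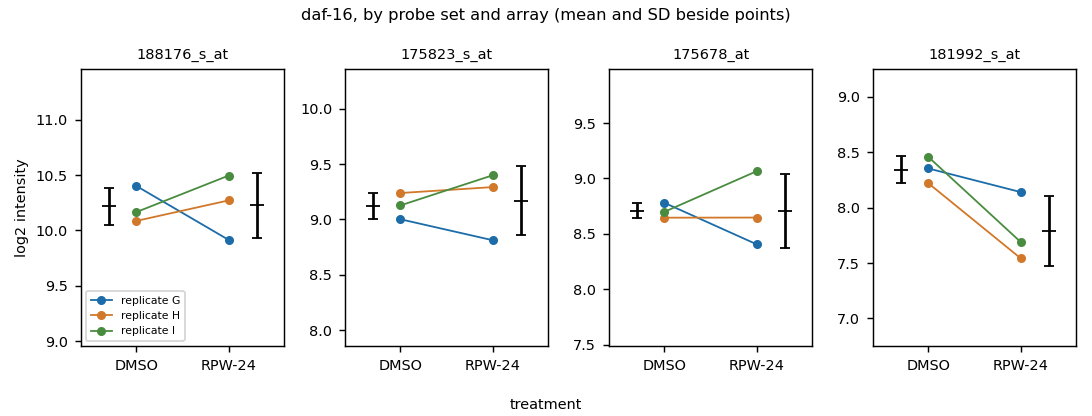
Log2 intensity of the 4 probe sets of *daf-16* by treatment, a line joining the arrays of a replicate letter, with the mean and SD of each group. Replicates G and I move apart on the first 3 probe sets, and all replicates are lower in RPW-24 on the dimmest, with differences from -0.77 to -0.21.

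*pqm-1* had the largest difference of the 9 genes on their brightest probe sets. Its only probe set was at 429, 463 and 207 in DMSO and at 817, 647 and 835 in RPW-24. Every RPW-24 array lay above every DMSO array, with log2 differences of 0.93, 0.48 and 2.02 in G, H and I. The DMSO arrays had a mean of 366 ± 139 (SD, n = 3), and the RPW-24 arrays one of 767 ± 103.7 (SD, n = 3). The fold was 2.21 (95% interval 1.15 to 4.26), a log2 fold change of 1.14 (standard error 0.36, unadjusted p = 0.0274, adjusted p = 0.24 from limma). Without the DMSO array of replicate I, which was the lowest, the fold was 1.71. In the filtered fit the adjusted p was 0.0635 from limma, and 0.0919 with the block. The genes whose log2 values ran most like those of *pqm-1*, among 7343 others compared over the 6 arrays, were *F18G5.6*, *tpra-1* and *cytb-5.2*, with Pearson r of 0.99, 0.989 and 0.98 and folds of 1.63, 2.15 and 1.17. These arrays share the treatment difference, so such values describe it in part.

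Tissue markers are set beside these values. Over all genes, 3.71% passed after adjustment and 15.3% had an unadjusted p under 0.05 from limma. Of genes with a mean log2 intensity of at least 5, the filtered fit called 17.1%, and 38.9% had groups that did not overlap. Of 7 intestinal markers read, among them *ges-1*, *elt-2* and *ifb-2*, 6 had all RPW-24 arrays above all DMSO arrays, and limma called none after adjustment (5 had an unadjusted p under 0.05, and 3 had one in the equal-variance test). The filtered fit called 2 of them higher, *ges-1* and *ifb-2* (adjusted p of 0.0366 and 0.0109 from limma, and 0.0749 and 0.00449 with the block). Their summed intensity ran from 11788 to 14770 in DMSO and from 15400 to 19844 in RPW-24, and their median log2 fold change was 0.63. Each intestinal marker was above the lowest intensity on at least 1 array. *pgp-1*, counted among the 6, was near or at the lowest intensity in DMSO, at 5.03, 5.03 and 4.39. In RPW-24 it was at 34.2, 14.3 and 14.3. The medians of neuronal and muscle markers also lay above 0, and that of hypodermal markers did not. Of 8 neuronal markers, 7 were above 0, with a median of 0.33. Only 4 of the 8 had a mean log2 intensity of at least 5, with a median of 0.55, and the others were dim. A pair of them, *ric-4* and *egl-3*, rose in the unfiltered fit (adjusted p of 0.0425 and 0.0436 from limma, and 0.124 and 0.175 with the block). The summed intensity of the 8 ran from 5022 to 5498 in DMSO and from 5243 to 5982 in RPW-24, so the sums overlapped. Most of each sum came from *snb-1*, which ran from 4514 to 4962 in DMSO and from 4324 to 5119 in RPW-24. The overlap of the sums therefore mainly describes that gene. Of 8 muscle markers, 6 were above 0, with a median of 0.30, and 4 had all RPW-24 arrays above all DMSO arrays, with sums from 29755 to 35809 in DMSO and from 39951 to 44997 in RPW-24. The unfiltered fit called no muscle marker (3 had an unadjusted p under 0.05, and 2 had one in the equal-variance test), and the filtered fit called *mlc-2* (adjusted p = 0.0394 from limma). That is 1 of the 6 muscle markers at that level, close to the share of all genes there. The 8 hypodermal and 7 sperm markers read had medians of -0.03 and 0.00. Only 1 of the sperm markers, *msp-3*, had a mean log2 intensity of at least 5, and it gave 0.57 (adjusted p = 0.538 from limma). The other sperm markers were too dim to judge. At that level, 5 hypodermal markers had a median of -0.07. Of 10 germline markers, all had a log2 fold change below 0, with a median of -0.19 and a summed intensity from 57334 to 62561 in DMSO and from 49575 to 57704 in RPW-24. Of 8 oocyte markers, 7 were below 0, with a median of -0.24, a sum from 101707 to 103125 in DMSO and from 86398 to 93043 in RPW-24, and 6 whose groups did not overlap. After adjustment the unfiltered fit called no germline or oocyte marker (3 and 6 had an unadjusted p under 0.05, against 3 and 5 in the equal-variance test). The filtered fit called *pgl-1*, *pgl-3*, *oma-2* and *rme-2* lower (adjusted p of 0.0172, 0.0395, 0.0215 and 0.0318 from limma), of which *rme-2* kept its call with the block (adjusted p = 0.0381). Those calls are 2 of 10 germline and 2 of 8 oocyte markers, against 17.1% of all genes at that level. The values of *age-1*, *daf-18* and *akt-1* lie in the same direction as these. The part of tissue shares in the values of *pqm-1*, *age-1*, *daf-18* and *akt-1* was not tested.

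Around the core pathway, 28 partners were listed, namely adaptors, TOR complex proteins, proteins that bind phosphorylated DAF-16, and factors that modify it or act with it. Of the 26 that were read, 1 rose, none fell and 25 did not pass, a share close to the 3.71% of all genes. The gene that rose was *ftt-2*, which encodes a protein that binds phosphorylated DAF-16 and keeps it in the cytoplasm. It was at 2939, 3044 and 2927 in DMSO and at 3769, 3505 and 3663 in RPW-24. The groups did not overlap, and the log2 fold change was 0.30 (standard error 0.03, adjusted p = 0.0241 from limma). The other *ftt-2* probe sets gave 0.35 and 0.36, with adjusted p of 0.108 and 0.342. The call was kept without the RPW-24 array of replicate H and lost without any other single array, with an adjusted p of up to 0.115, and it was 0.166 with the block. It was also lost when each gene's probe sets were averaged, where *smk-1* was the 1 partner called, lower. With probe sets ending in _s_at or _x_at left out, *ftt-2* had none left and *rict-1* was the 1 partner called, lower. The near-identical relative of *ftt-2*, *par-5*, gave -0.16 (adjusted p = 0.38 from limma), and probes shared by *ftt-2* and *par-5* were not tested for.

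Partners closer to the lipid signal gave small values. *aap-1*, the adaptor subunit of AGE-1, was at 1461, 1437 and 1391 in DMSO and at 1336, 1437 and 1483 in RPW-24, so the groups overlapped and the log2 fold change was -0.01 (standard error 0.05). The receptor adaptor *ist-1* was near the lowest intensity. *eak-3* and *eak-4*, which act in parallel to AKT-1, stayed at the lowest intensity throughout, as did *daf-9*, a hormone synthesis enzyme.

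For a pair of partners the brightest probe set and a dimmer one gave different answers, seen after their values were known. *rict-1*, a TOR complex protein, gave -0.19 (adjusted p = 0.681 from limma) on the brightest. On a dimmer probe set, whose mean was 225 ± 8.53 (SD, n = 3) for DMSO against 146 ± 7.07 (SD, n = 3) for RPW-24, it fell by 0.62 on the log2 scale (adjusted p = 0.00916). *smk-1*, a nuclear cofactor of DAF-16, gave 0.06 (adjusted p = 1) on the brightest and -0.39 and -0.79 on the others (adjusted p of 0.0392 and 0.057). With the block, the adjusted p of the called *rict-1* and *smk-1* probe sets were 0.11 and 0.206.

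Of 12 insulin-like peptides listed as ligands, 11 were read, none had a mean log2 intensity of 5, and 3 never left the lowest intensity. The ligands were therefore mostly too dim to judge. *ins-18*, described as a DAF-2 antagonist, was at 12.7, 11.8 and 10.96 in DMSO and at 15.7, 16.15 and 15.7 in RPW-24. The groups did not overlap, and the log2 fold change was 0.43 (standard error 0.06, adjusted p = 0.0341 from limma). No other ligand passed, while 3.71% of all genes did. All 6 *ins-18* values lie under 32, so raising lower intensities to 32 left a log2 fold change of 0.00 and no call. A further quantile normalization also lost the call. The adjusted p was 0.14 with the block and up to 0.136 when any single array but the DMSO array of replicate G was left out.

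The genes that DAF-16 is known to switch on when DAF-2 signalling is low, here class I targets, went both ways. Of 20 listed, 18 were read, 3 rose, 1 fell and 14 did not pass at an adjusted p under 0.05 from limma. Those 4 calls among 18 genes are a larger share than the 3.71% of all genes that passed. The list was chosen with earlier results of these data known, so the larger share does not test the class. The median log2 fold change of the 18 was -0.00, against 0.00 over all genes. *mtl-1*, a metallothionein, was at 218, 131 and 50.1 in DMSO and at 14547, 10469 and 9295 in RPW-24. It rose 99.5-fold (adjusted p = 0.0115), and the study had picked it for its induction on these arrays, so its direction is not independent evidence. The paper also measured *mtl-1* and *lys-7*, another class I gene, by quantitative PCR of RNA. It states that the array changes correlated with those values. Without the DMSO array of replicate I the *mtl-1* fold was 66.3. The heat shock genes *hsp-16.2* and *hsp-70* rose by 4.64 and 3.82 on the log2 scale (adjusted p of 0.0177 and 0.0244), and the heat shock factor HSF-1 is known to drive both. *hsp-16.2* was at 9.51, 10.1 and 6.58 in DMSO and at 158, 424 and 147 in RPW-24. *hsp-70* was at 10.96, 12.31 and 10.96 in DMSO and at 185, 265 and 84.6 in RPW-24. With intensities under 32 set to 32, their log2 fold changes were 2.74 and 2.33.

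*spp-1*, a saposin-like defense peptide of the intestine, fell. Its brighter probe set is of a type shared between transcripts, like those of *hsp-70* and *lys-7*. The study's own list of changed genes holds *spp-1*, so its direction is not independent evidence. It was at 3360, 3217 and 2325 in DMSO and at 318, 447 and 307 in RPW-24, and was 8.33-fold lower (log2 fold change -3.06, standard error 0.22, adjusted p = 0.00606 from limma). This call held with each array left out in turn. The other *spp-1* probe set stayed at the lowest intensity on all 6 arrays. With probe sets ending in _s_at or _x_at left out, the calls of *spp-1* and *hsp-70* were lost. On leaving out single arrays, the calls of *mtl-1*, *hsp-16.2* and *hsp-70* were lost for 4, 5 and 5 of the 6 arrays. *mtl-1* kept its call without the DMSO array of replicate G or of I, *hsp-16.2* without the RPW-24 array of H and *hsp-70* without that of I. With the block, the adjusted p of *mtl-1*, *hsp-16.2*, *hsp-70* and *spp-1* were 0.0651, 0.08, 0.11 and 0.0536.

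Unlike *mtl-1*, the class I genes *sod-3*, *hsp-12.6* and *scl-1* were near the lowest intensity in both groups. *sod-3*, a mitochondrial superoxide dismutase, was at 4.997, 4.44 and 4.44 in DMSO and at 4.44 on each RPW-24 array. *hsp-12.6*, a small heat shock protein, was at 4.75 to 4.84, and *scl-1* at 4.48 on all 6 arrays. No rise of these genes to a readable level was seen, and smaller changes below that level cannot be read. Among brighter class I genes that did not pass, *lys-7*, a lysozyme that the study likewise picked, had a log2 fold change of 2.78 (adjusted p = 0.0769 from limma, 0.0128 in the filtered fit and 0.00504 with the block added there). *ctl-2*, a catalase, had -0.82 and *icl-1*, a glyoxylate cycle enzyme, -0.51 (adjusted p of 0.166 and 0.34). The filtered fit gave them 0.0401 and 0.106, and with the block added 0.0316 and 0.00853. The near-identical catalase genes may share probes with *ctl-2*.

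**Figure D4:**
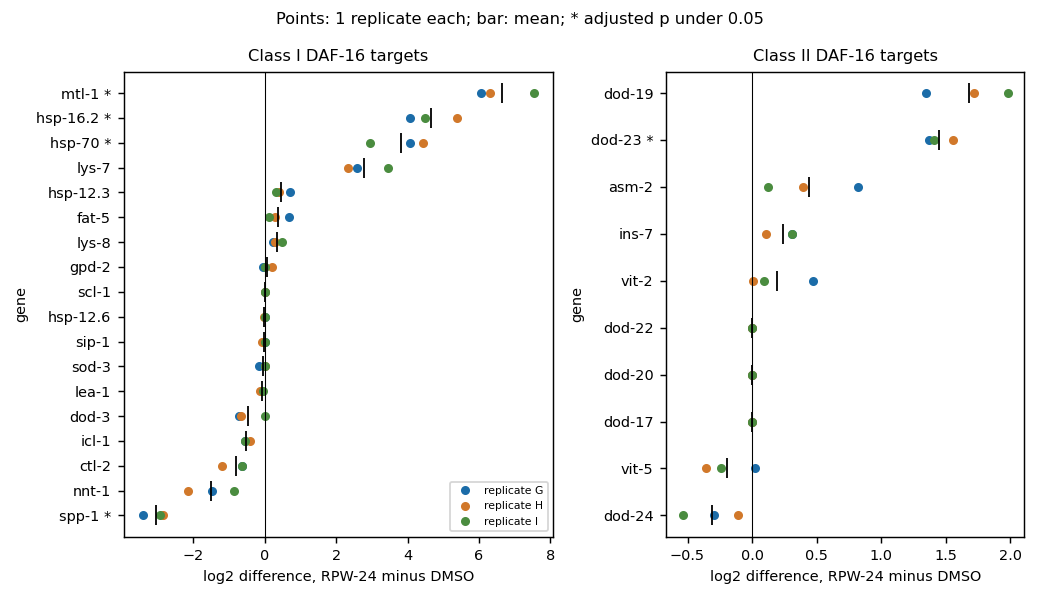
Log2 difference of RPW-24 minus DMSO within replicates G, H and I (points) and their mean (bar) for 18 class I and 10 class II DAF-16 targets, with an asterisk at an adjusted p under 0.05 from limma. Class I genes spread from -3.06 for *spp-1* to 6.64 for *mtl-1*, and *dod-23* and *dod-19* lead class II at 1.44 and 1.68.

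Class II targets, which are known to be lower when DAF-2 signalling is low and many of which carry the element that PQM-1 binds, were read for 10 of 12 genes. Of these, 1 rose, none fell and 9 did not pass, while 3.71% of all genes passed. *dod-23* was at 2926, 2309 and 2600 in DMSO and at 7571, 6786 and 6890 in RPW-24. It rose 2.72-fold (log2 fold change 1.44, standard error 0.10, adjusted p = 0.00553 from limma), and the call held with each array left out and with the block (adjusted p = 0.0394). *dod-19* was at 154, 81.5 and 118 in DMSO and at 393, 268 and 465 in RPW-24, without overlap, with a log2 fold change of 1.68 (adjusted p = 0.0851). *dod-19* is also on the study's own list of changed genes. The yolk protein genes *vit-2* and *vit-5* gave 0.19 and -0.19 (adjusted p of 0.584 and 0.644). *dod-17*, *dod-20* and *dod-22* never left the lowest intensity. Over the 6 class II genes with a mean log2 intensity of at least 5 the median log2 fold change was 0.32, against -0.07 for all genes at that level. Over the 14 such class I genes it was 0.20. Of these, *hsp-16.2* and *hsp-70* reach that level only through their RPW-24 arrays, and the study picked *mtl-1* and *lys-7* on these arrays. The class II median includes *dod-19*, and both lists were chosen with earlier results of these data known. Neither median therefore tests its class.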

How the data were processed

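RNA of whole animals was hybridised to 6 Affymetrix whole genome arrays for *C. elegans*. The deposited intensity values came from GenePattern version 2.0, where the authors applied GC-RMA, of a version not given in the sources used here, and quantile normalized the arrays, with 1 linear intensity per probe set and array, from 4.39 upwards. No genome build is given in the sources used here, so no coordinates are given, and no sequences are shown. After 77 control probe sets were left out of 22625, log2 values of the 22548 that remained were analysed. Of these, 20766 name 1 gene, 887 several and 895 none, by the annotation of the array.

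The 2 treatments were tested against each other in limma 3.58.1 under R 4.3.3, by lmFit and then eBayes, whose prior variance followed a trend with intensity, unpaired and without a filter. The methods name a modified test in GenePattern with no pairing, and it was not rerun here. A gene counts as risen or fallen at an adjusted p under 0.05, on its brightest probe set. Every insulin pathway gene is named, and of each list up to 4 genes in each direction that passed, with others singled out after their values were seen. The members and lists were chosen with earlier results of these data known. The letters pair the arrays because the submitters ran the treatments of a replicate in parallel. Over 13946 probe sets above the lowest intensity, deviations of arrays with the same letter correlated at 0.0881, 0.144 and 0.138 for G, H and I, and others between -0.0945 and -0.0322. As an alternative, linear intensities were compared unpaired by a plain test assuming equal variances. The fit was first tested on simulated data. Leaving out each array, the replicate block, filters, scalings and other thresholds were tried as alternatives. Summaries and plots used Python 3.11.15 with pandas 2.3.3, numpy 2.4.6 and matplotlib 3.10.9.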

Additional observations from a re-analysis of the deposited data

How the results depend on the processing

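No insulin pathway gene passed under the other settings run, leaving out each array included, except that *pqm-1* passed at an unadjusted p under 0.05 (1 gene) and that 4 genes (*pqm-1* higher, *age-1*, *akt-1* and *daf-18* lower) passed with arrays centred on their medians. Centring moves every probe set alike by -0.14, dim ones included, and gave 11 partners, 9 ligands, 12 class I and 6 class II targets. Among the 9 ligands were *ins-6*, *ins-32* and *ins-37*, which stayed at the lowest intensity on all 6 arrays. With the replicate block, 0 partners, ligands and class I targets passed, and the class II count stayed at 1. Shares of all genes were counted only for the unblocked fit without a filter, the filtered fits and the unadjusted p under 0.05. Counts under other settings are therefore not read as results about the lists. Over probe sets with a mean log2 intensity of at least 5, 3 partners (*ftt-2* and *hlh-30* higher, *math-33* lower), 6 class I targets (*ctl-2* lower and *lys-7* higher beside the 4 of the unfiltered fit) and 2 class II targets passed, and no ligand was left. Of all genes, 17.1% passed there, against 3 of 18 partners, 6 of 14 class I and 2 of 6 class II targets, and the partner count is close to that share. Of the class I targets, *hsp-16.2* and *hsp-70* reach that level only through their RPW-24 arrays. Adding the block there, chosen after seeing the data, gave 2 partners (*hcf-1* and *math-33*, both lower), 7 class I and 2 class II targets. Of all genes, 14.5% passed with the block there. The equal-variance test on linear intensities gave 0 partners, ligands and class I targets, and 1 class II target, *dod-23*. At an unadjusted p under 0.05 from limma there were 5 of 26 partners, 7 of 18 class I and 2 of 10 class II targets, against 15.3% of all genes. At 3-fold and an unadjusted p under 0.025 from limma there were 0 partners and ligands. That setting gave 5 class I targets (*mtl-1*, *hsp-16.2*, *hsp-70* and *lys-7* higher, *spp-1* lower) and 1 class II target (*dod-19*, higher). Intensities set to at least 32 gave 0 ligands and 2 class I targets, a further quantile normalization 0 ligands, and no _s_at or _x_at probe sets 2 class I targets. Leaving out 1 array gave 0 to 1 partners, 0 to 1 ligands and 1 to 2 class I targets. The cause of these differences was not tested. The sign of the uncalled *daf-16*, *pdk-1* and *sgk-1* values changed in 7, 2 and 2 of 16 alternatives. Genes near the lowest intensity, *daf-2* among them, cannot be judged.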
